A study of Bos taurus with 9 samples.

Results

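The layout of 4 chromatin targets was described in rumen tissue after 24 h of butyrate, antibody against antibody within that one condition. The members were all peaks of the 4 lists labelled butyrate treatment that lay on chromosomes 1 to 29, and no measured value was used to choose them. This gave 39970 of the 41503 peaks of these lists and of the 86291 peaks of the whole series. The remaining 1533 butyrate peaks lay on X or on the mitochondrial chromosome (MT) and were left out. The 4 targets were acetylated lysine 9 of histone H3 (H3K9ac, 4255 peaks), acetylated lysine 27 of histone H3 (H3K27ac, 32763 peaks), RNA polymerase II (RNA pol II, 1242 peaks) and trimethylated lysine 9 of histone H3 (H3K9me3, 1710 peaks).

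Chromatin immunoprecipitation followed by sequencing (ChIP-seq) recovers DNA bound to an antibody's target, and a peak is a stretch where reads of the antibody library outnumbered those of input chromatin, which is taken before the antibody is added. The series held 9 libraries, namely each of the 4 antibodies in rumen tissue collected before butyrate (control), each in rumen tissue after 24 h of butyrate, and 1 input. The breed was labelled Hostein (Holstein), and no age, sex or genotype was given. Per the methods of the study, butyrate was infused and the tissue taken by biopsy, and the number of animals behind a library is not given in the sources used here. Rumen biopsies hold several cell types, so a region with peaks of 2 antibodies need not carry both targets in the same cell.

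Acetylated H3K9 and H3K27 are laid down by acetyltransferases and removed by histone deacetylases, and both are known marks of active promoters and enhancers. RNA pol II, the enzyme that transcribes protein-coding genes, gathers at promoters and along active genes, whereas H3K9me3 is the known mark of silent heterochromatin and of repeated sequences. Butyrate, a short-chain fatty acid made by the microbes of the rumen, inhibits histone deacetylases and is a main energy source of the rumen wall.

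Each group held 1 library, so no value here has a replicate check and no test between lists was run. Intervals are 95% Wilson intervals for shares and exact binomial intervals for medians. They cover counting error only and do not cover differences between animals or immunoprecipitations. The lists hold positions and no peak score or read number, so the lists could not be brought to a common depth, and the length of a list stands for the library and its depth as well as for the target. The H3K9ac, H3K27ac and RNA pol II libraries ran on lane 3 and the H3K9me3 library on lane 4, so for H3K9me3 the antibody and the lane cannot be told apart. All lists were made against the same input library, and its part in the overlaps was not tested. The lists carry no genes, and the labelled tissue could not be checked against its marker genes.

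The lists differed in how many peaks they held, how wide these were and how they were spaced. H3K27ac had 13.1 peaks per Mb, H3K9ac 1.70, H3K9me3 0.682 and RNA pol II 0.495. Median widths were 302 bp for H3K27ac, 246 bp for H3K9ac, 232 bp for H3K9me3 and 213 bp for RNA pol II. Peaks at the minimum width of 200 bp made up 6.65% of the H3K27ac list and 13.1% of the H3K9ac list. They made up 25.4% of H3K9me3 and 38.4% of RNA pol II, so that the shortest list also held the narrowest peaks. In base pairs, H3K27ac covered 0.483% of the 2509 Mb spanned by the 29 chromosomes and RNA pol II 0.0119%.

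Within its own list, an H3K27ac peak had its nearest neighbour at a median gap of 734 bp, where even spacing of the list would put 76.6 kb between peaks. An H3K9me3 peak had its nearest H3K9me3 peak at a median of 63.0 kb, against an even spacing of 1467 kb. H3K9ac peaks were 41.1 kb from the next of their list (even spacing 590 kb), and RNA pol II peaks 348 kb (even spacing 2020 kb). The gap was thus shortest against even spacing for H3K27ac and least so for RNA pol II.

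The acetylation lists had nearly the same order of chromosomes. Chromosome 19 was the densest for both, with 4.29 H3K9ac and 31.1 H3K27ac peaks per Mb, and chromosome 18 was second for both. Over the 29 chromosomes, the Spearman correlation (rho) of peaks per Mb was 0.964 between H3K9ac and H3K27ac. It was 0.695 between H3K9ac and RNA pol II and 0.715 between H3K27ac and RNA pol II. With H3K9me3 it was 0.304 for H3K9ac, 0.267 for H3K27ac and 0.368 for RNA pol II. These correlations are descriptions over chromosomes that share the input library, gene content and base composition.

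H3K9me3 followed another order of chromosomes. Its densest chromosomes were 18 (1.82 peaks per Mb), 27 (1.80) and 14 (1.54), against 0.682 over all 29. Chromosome 27 was the sparsest of all for H3K27ac, with 6.06 peaks per Mb, and held 79 H3K9me3 peaks for 11 RNA pol II peaks, a ratio of 7.18. Of these 79 H3K9me3 peaks, 41 lay in a single stretch of 1 Mb, 28000001 to 29000000. On chromosome 14, 36 of the 130 H3K9me3 peaks lay in the 1st Mb, 23 in the 15th and 17 in the 16th. The H3K9me3 densities of chromosomes 14 and 27 thus rest in part on local clusters. Chromosome 18 was dense in acetylation and in H3K9me3 alike. RNA pol II ranged from 0.246 peaks per Mb on chromosome 9 to 0.820 on chromosome 23, with chromosome 14 second at 0.808. The number of H3K9ac peaks per 100 H3K27ac peaks ranged from 8.57 on chromosome 20 to 16.7 on chromosome 29.

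**Figure D1:**
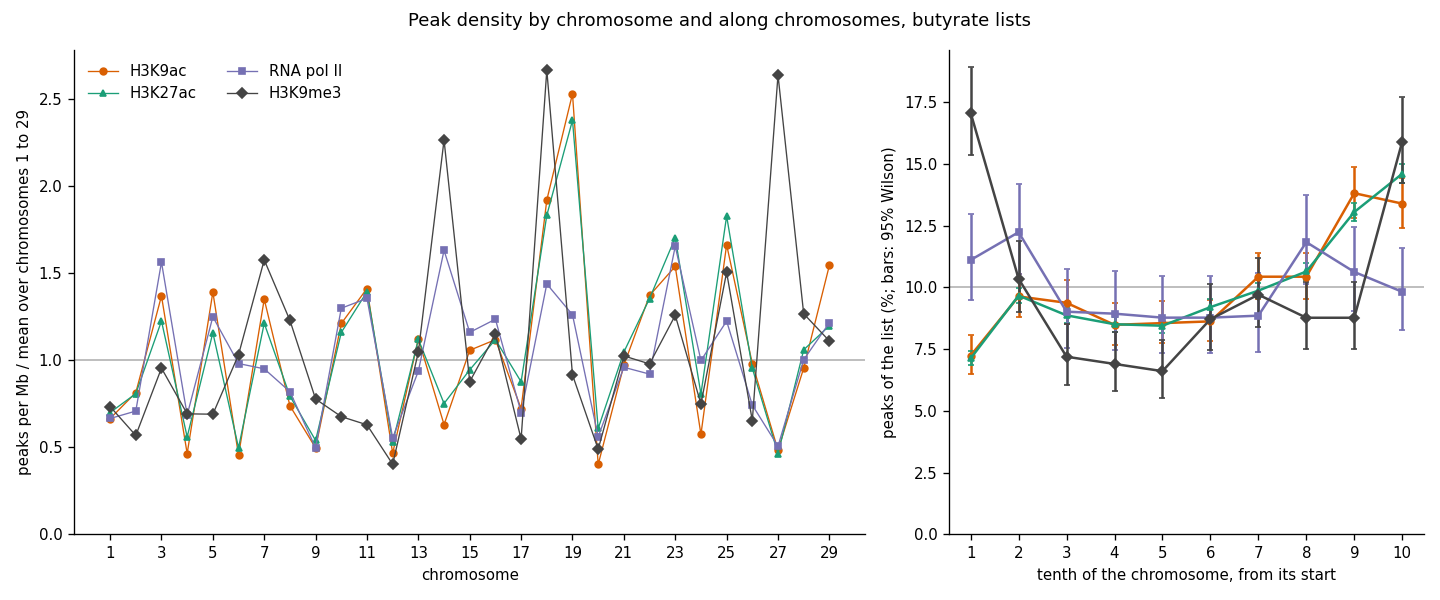
Left, peaks per Mb on each of chromosomes 1 to 29 divided by the mean density of the list, with 1 symbol per antibody. Right, percent of each list in 10 equal parts of the chromosomes, counted from the chromosome start, with 95% Wilson intervals as bars. The acetylation lists run together, H3K9me3 stands above 1.5 times its mean on chromosomes 7, 14, 18, 25 and 27, and its share is highest in the first and the last of these parts.

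Along the chromosomes, the share of H3K9me3 peaks was highest in the first and the last 10%. The first 10% of each chromosome, from position 1 on, held 17.1% (15.4 to 18.9) of the H3K9me3 peaks. The last 10% held 15.9% (14.2 to 17.7) of them. Of the 292 H3K9me3 peaks in the first 10%, 36 lay in the 1st Mb of chromosome 14. On chromosome 6, 17 lay in the 6th Mb and 25 in the 7th. The share at the start thus rests in part on local clusters, and it was not computed without them. The intervals treat clustered peaks as independent. H3K27ac peaks were few in the first 10% (7.12%) and many in the last (14.6%), and H3K9ac peaks had shares of 7.24% and 13.4%. RNA pol II peaks were close to even, with 11.1% at the start and 9.82% at the end. A chromosome was taken to end with its last peak in any list of the series, and stretches of the assembly without alignable sequence were not removed.

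Distances between nearest peaks set the antibodies apart more sharply. The gap is the number of base pairs between the facing ends of 2 peaks and is 0 where they overlap by at least 1 bp. Of the H3K9ac peaks, 83.2% (82.1 to 84.3) overlapped an H3K27ac peak and 94.7% had one within 10 kb. As a yardstick, the share of the span that lies close enough to an H3K27ac peak for an H3K9ac peak of median width to overlap it was 0.783%. The observed share was 106 times this value. With the 1242 widest peaks of each list in place of all peaks, the overlap was 20.3%. That choice removed most H3K27ac peaks, and the span share of the shortened list was not computed. The 713 H3K9ac peaks without an overlapping H3K27ac peak were still near one, at a median gap of 3.04 kb.

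RNA pol II peaks were near acetylation but mostly not on it. Of 1242 RNA pol II peaks, 32.1% (29.6 to 34.8) overlapped an H3K27ac peak, 43.1 times the span share, and the median gap was 6.44 kb (5.04 to 8.29). The 843 RNA pol II peaks without overlap lay at a median of 22.8 kb from H3K27ac. Over the 1242 widest peaks of each list, which removed most H3K27ac peaks and no RNA pol II peak, the median gap to H3K27ac was 429.7 kb. H3K9ac overlapped 12.1% (10.4 to 14.01) of the RNA pol II peaks, and the median gap to H3K9ac was 68.8 kb (54.9 to 90.5).

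H3K9me3 peaks overlapped H3K27ac more often than the span share, while within 10 kb the share was near it. Their median gap to the nearest H3K27ac peak was 74.4 kb (69.1 to 81.5). It was 1082 kb over the 1242 widest peaks of each list, a choice that removed most H3K27ac peaks. An H3K27ac peak overlapped 2.69% (2.02 to 3.57) of them, 3.50 times the span share. Within 10 kb the share was 13.7% (12.1 to 15.4) and the span share 12.5%, a ratio of 1.09. Within 100 kb the ratio was 1.24. Overlap with H3K9ac was 2.75% (2.07 to 3.64), which was 32.3 times its span share, and the median gap was 271 kb.

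RNA pol II and H3K9me3 overlapped more often than their sparse lists would give. Of the RNA pol II peaks, 10.8% (9.18 to 12.6) overlapped an H3K9me3 peak, where the span share was 0.0325%, a ratio of 332. Of the H3K9me3 peaks, 7.72% (6.55 to 9.08) overlapped an RNA pol II peak, a ratio of 331. The median gaps were nevertheless long, 521 kb from RNA pol II to H3K9me3 and 511 kb in the other direction, so that a minority of coinciding peaks stood beside a majority far apart.

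**Figure D2:**
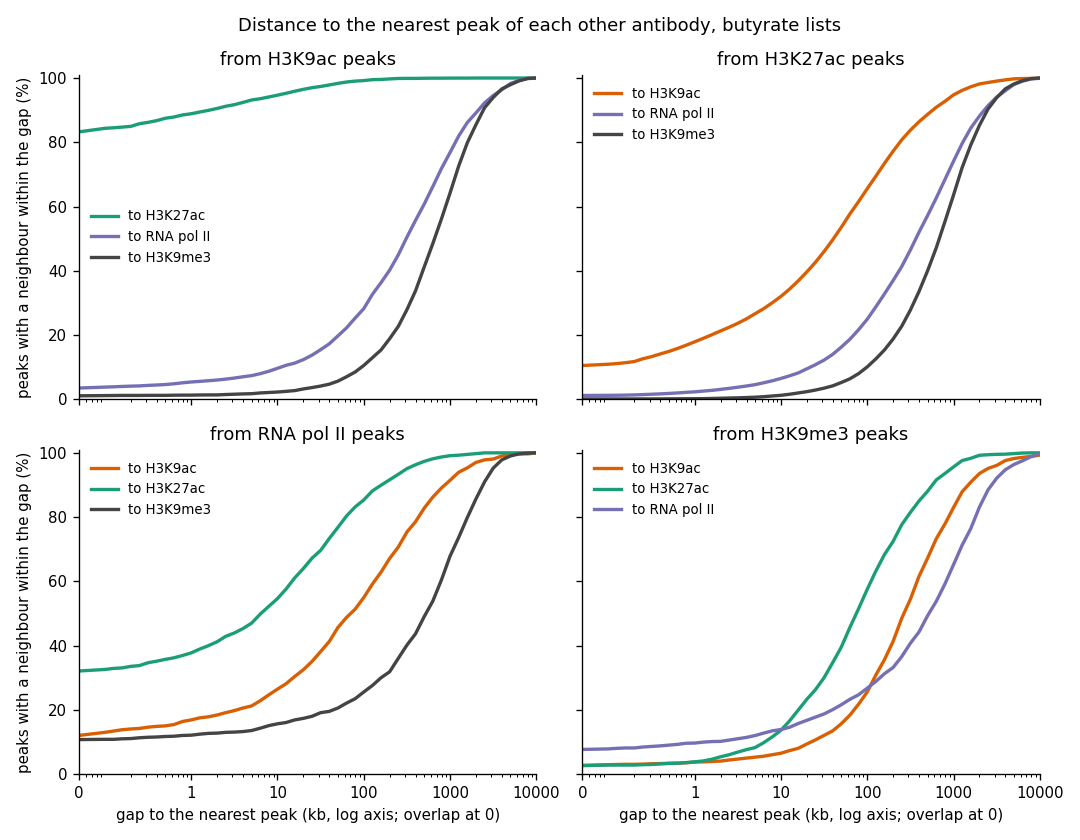
Cumulative percent of peaks whose nearest peak of another antibody lies within a given gap (kb, log axis, overlap drawn at 0), with 1 panel for each antibody measured from and 1 line for each antibody measured to. The H3K9ac line to H3K27ac starts at 83.2%, whereas the H3K9me3 line to H3K27ac starts at 2.69% and crosses the line to RNA pol II, which starts at 7.72%, near 10 kb.

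The nearest peak of any list, by midpoints, also differed between antibodies. For H3K9ac peaks it was an H3K27ac peak in 95.3% of cases, where H3K27ac peaks made up 82.0% of all peaks. For H3K9me3 peaks it was an H3K27ac peak in 41.9% (39.6 to 44.2), another H3K9me3 peak in 40.8% (38.5 to 43.2) and an RNA pol II peak in 12.9% (11.4 to 14.5). H3K9me3 made up 4.28% and RNA pol II 3.11% of all peaks. For RNA pol II peaks the nearest was H3K27ac in 70.6%, H3K9me3 in 14.8% and H3K9ac in 10.6%.

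Density was also counted in rings around each peak, by distance between midpoints, and divided by the mean density of the list counted. Around H3K9ac peaks, H3K27ac density was 51.6 times its mean within 1 kb and fell steadily to 1.41 times at 2 to 5 Mb. Around H3K9me3 peaks, H3K27ac density was 1.64 times its mean within 1 kb, 0.99 times at 1 to 2 kb and 0.90 times at 2 to 5 kb. It was 1.28 times its mean at 200 to 500 kb. Beyond 1 kb the H3K27ac ratio lay between 0.90 and 1.32 in every ring up to 5 Mb.

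H3K9me3 peaks around other H3K9me3 peaks formed wide clusters. Their density was 82.5 times the mean within 1 kb, still 6.24 times at 200 to 500 kb, and fell to 1.37 times at 1 to 2 Mb. RNA pol II density around H3K9me3 peaks was 104 times its mean within 1 kb and 18.95 times at 1 to 2 kb.

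**Figure D3:**
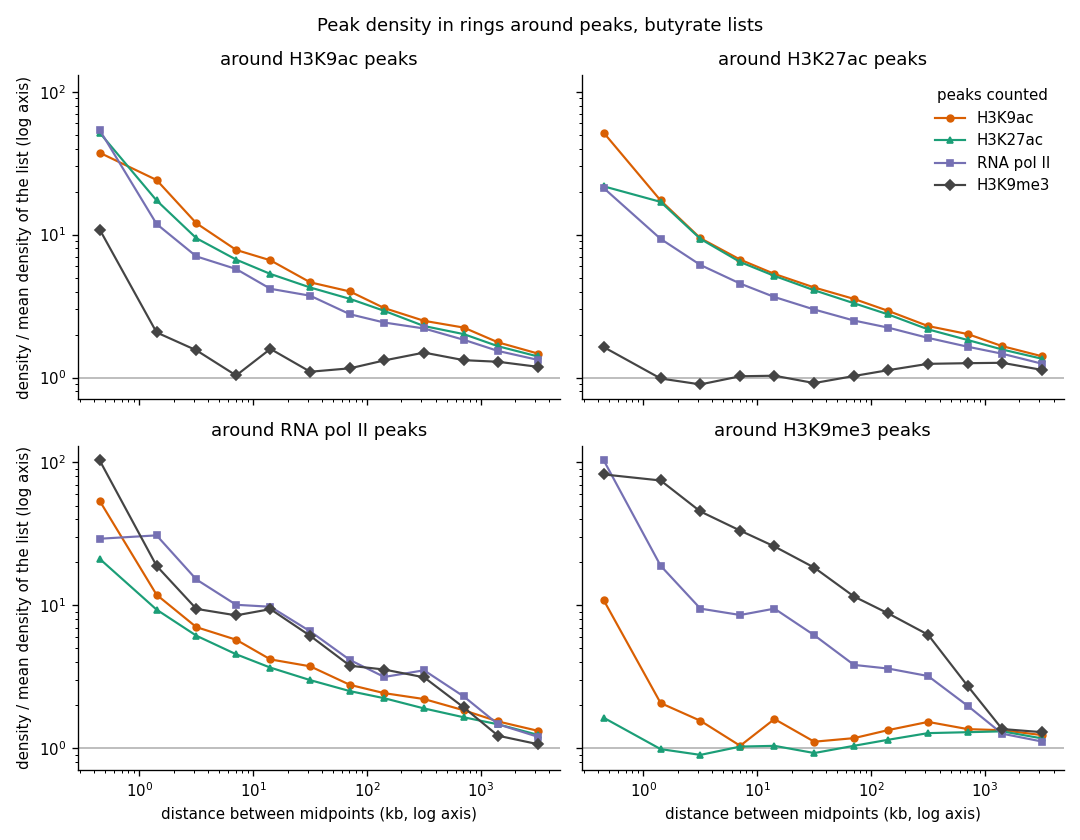
Density of peaks in rings around the peaks of each antibody, divided by the mean density of the list counted, against the distance between midpoints (both axes logarithmic), with 1 panel per central antibody and a grey line at the mean. The lines of H3K9ac, H3K27ac and RNA pol II fall together around each other, while around H3K9me3 the H3K27ac line stays between 0.90 and 1.64 and the H3K9me3 and RNA pol II lines reach 82.5 and 104.

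Counts per 1 Mb bin, over 2523 bins, gave the arrangement at a larger scale. The rank correlation of H3K9ac and H3K27ac counts was rho = 0.804 (Pearson r = 0.866), and 0.50 over the 1242 widest peaks of each list. RNA pol II had rho = 0.454 with H3K27ac and 0.412 with H3K9ac. H3K9me3 had rho = 0.171 with H3K27ac, 0.152 with H3K9ac and 0.188 with RNA pol II. Bins are not independent points: they share the input library, the amount of alignable sequence and base composition, and neighbouring bins had rho of 0.471 for H3K27ac and 0.339 for H3K9ac. No p-value is given for them.

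The lists were uneven in these bins to different degrees. H3K27ac had no peak in 22.2% of bins, H3K9ac in 49.5%, H3K9me3 in 67.9% and RNA pol II in 69.1%. The 253 bins richest in a list, or 10% of all bins, held 41.8% of the H3K27ac peaks, 50.4% of H3K9ac, 57.2% of RNA pol II and 64.6% of H3K9me3. The variance of the counts divided by their mean gave another order. It was 22.5 for H3K27ac, 6.01 for H3K9me3, 4.64 for H3K9ac and 2.28 for RNA pol II. All of these measures depend on the length of a list, so they do not rank the targets by unevenness. In 99.8% of the bins with an H3K9ac peak there was an H3K27ac peak, and 96.0% of the bins with RNA pol II had H3K27ac. For H3K9me3 bins this share was 87.5%.

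From the bins poorest to those richest in H3K27ac, H3K9ac and RNA pol II peaks were more numerous. In the 561 bins without H3K27ac, H3K9ac had 2 peaks in all and RNA pol II a mean of 0.0642 peaks. In the 193 bins with 41 to 117 H3K27ac peaks the means were 8.45 for H3K9ac and 1.53 for RNA pol II. H3K9me3 had a mean of 0.308 peaks in bins without H3K27ac, 0.943 in bins with 3 to 5 H3K27ac peaks and 0.668 in bins with 41 to 117. Its lowest mean was thus in the bins without H3K27ac, and its highest were in classes short of the richest.

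**Figure D4:**
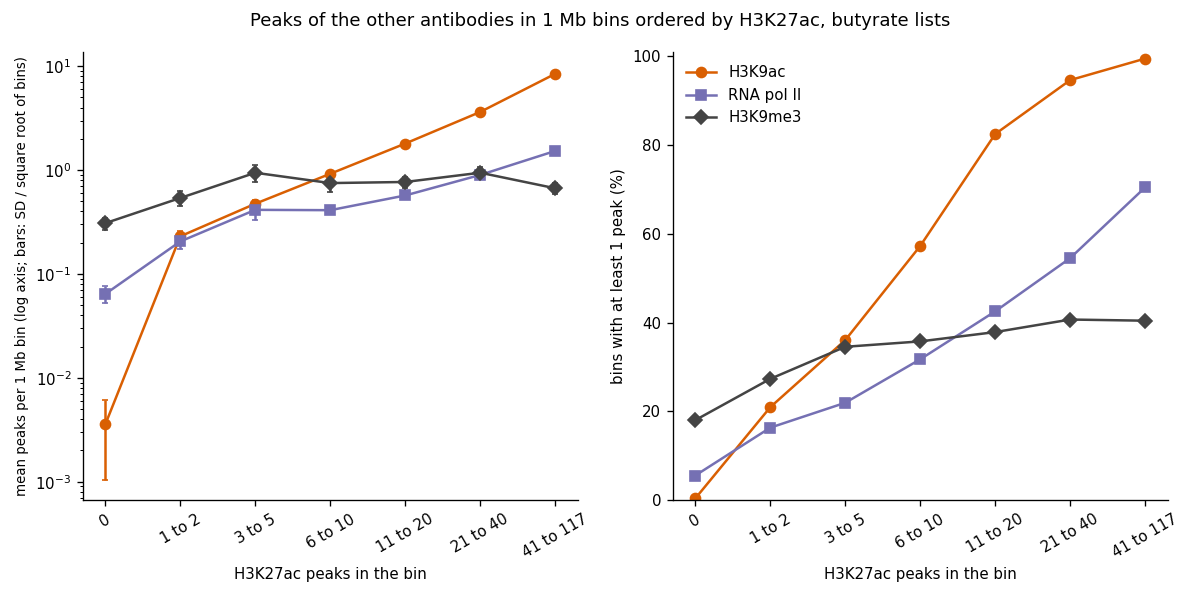
Left, mean number of H3K9ac, RNA pol II and H3K9me3 peaks per 1 Mb bin (log axis, bars are the SD divided by the square root of the number of bins) in classes of bins by their number of H3K27ac peaks. Right, percent of these bins with at least 1 peak. H3K9ac reaches 99.5% and RNA pol II 70.5% of bins in the class with 41 to 117 H3K27ac peaks, whereas H3K9me3 goes from 18.0% to 40.4%.

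The correlation of H3K9me3 with the acetylation lists was weaker where bins without H3K27ac were left out. Over the 1962 bins with at least 1 H3K27ac peak, rho of H3K27ac with H3K9me3 was 0.0828, and Pearson's r was 0.0051. H3K9ac with H3K9me3 had rho = 0.0856 there. For RNA pol II with H3K27ac, rho was 0.380 in the same bins.

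Once the ranks of H3K27ac were taken out as a partial rank correlation, RNA pol II with H3K9ac went from 0.412 to 0.0883. With the ranks of H3K9ac taken out instead, RNA pol II with H3K27ac stood at 0.227. RNA pol II with H3K9me3 stood at 0.126 after removing H3K27ac, and H3K9ac with H3K9me3 at 0.0235. The H3K27ac list was by far the longest, so its counts per bin carry the least counting error, and its part in the difference between these partial values was not tested.

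For RNA pol II with H3K9me3, Pearson's r was 0.386 and rho 0.188, and the first of these rested partly on a few bins. Without the 3 bins richest in H3K9me3, r was 0.308 and rho 0.186. Those 3 bins were chromosome 27, 28000001 to 29000000, with 41 H3K9me3 peaks, chromosome 14, 1 to 1000000, with 36, and chromosome 6, 6000001 to 7000000, with 25. The bin on chromosome 6 also held the most RNA pol II peaks of any bin (16), and the bin on chromosome 14 held 14. The bin on chromosome 27 held 0 RNA pol II, 8 H3K27ac and 2 H3K9ac peaks, so dense H3K9me3 came with and without RNA pol II.

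More widely, 55 bins with at least 5 H3K9me3 peaks held 34.5% of the H3K9me3 list. They had a mean of 2.27 RNA pol II peaks, against 0.453 in all other bins. Their mean H3K27ac number was 13.5 against 13.0, and their mean H3K9ac number 2.31 against 1.67. In these bins, 46.4% (37.9 to 55.1) of 125 RNA pol II peaks overlapped H3K9me3. In all other bins it was 6.80% (5.47 to 8.43) of 1117 peaks. The 55 bins were chosen by their H3K9me3 peaks, with a mean of 10.7 against 0.454 in all other bins. A higher overlap with H3K9me3 in them follows in part from this choice. Overlap set against the local H3K9me3 density was not tested. Both shares were above the span share of 0.0325%, which holds for all bins together and was not computed for either class.

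The richest bins of the acetylation lists were different ones. Chromosome 5, 104000001 to 105000000, held 26 H3K9ac and 97 H3K27ac peaks, with 2 RNA pol II and 0 H3K9me3 peaks. Chromosome 29, 44000001 to 45000000, held 117 H3K27ac peaks, with 20 H3K9ac, 4 RNA pol II and 0 H3K9me3 peaks. These 2 bins had no H3K9me3 peak, whereas 40.4% of the 193 bins with 41 to 117 H3K27ac peaks had at least 1.

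Overlapping peaks of the 4 lists were then merged into 35813 regions. Of these, 32006 (89.4%) held 1 antibody, 3630 (10.1%) held 2, 157 held 3 and 20 held all 4. Regions with 2 or more antibodies made up 10.6% (10.3 to 10.95). The most common region was H3K27ac alone (29036 regions, 81.1%, and 21.4% with the 1242 widest peaks of each list), followed by H3K9ac with H3K27ac (3279, 9.16%). H3K9me3 alone made 1555 regions, RNA pol II alone 732 and H3K9ac alone 683. All 15 possible combinations occurred.

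**Figure D5:**
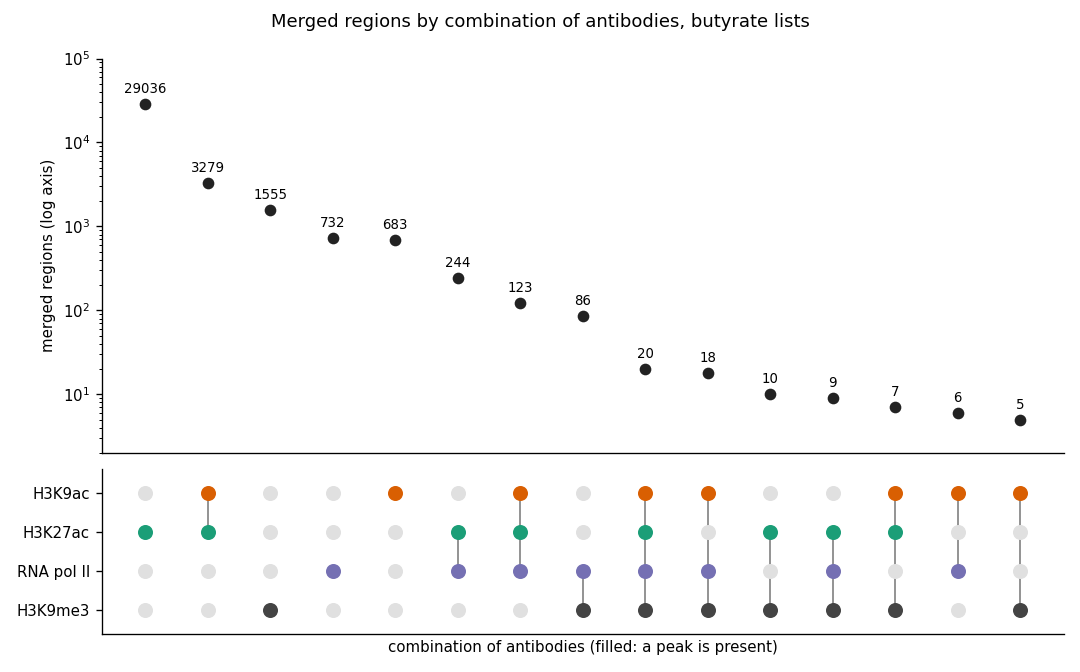
Number of merged regions (log axis) for each of the 15 combinations of antibodies, ordered by number, with filled circles below marking the antibodies present. H3K27ac alone (29036) and H3K9ac with H3K27ac (3279) lead, RNA pol II with H3K9me3 (86) is the most common combination of H3K9me3 with another antibody, and all 4 antibodies occur in 20 regions.

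Whether a peak stood alone depended on its list. Of the H3K9me3 peaks, 90.9% met no other antibody, and of the H3K27ac peaks 88.6%. Of the RNA pol II peaks 58.9% met none, and of the H3K9ac peaks 16.1%. For H3K27ac, which outnumbered the other 3 lists together, the high share alone follows in part from the numbers, since 32763 peaks cannot all meet the 7207 others.

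Where 2 peaks overlapped, their fit differed by pair. Of the overlapping pairs of H3K9ac and H3K27ac, the H3K9ac peak lay wholly inside the H3K27ac peak in 73.0% (71.5 to 74.4), and the H3K27ac peak was a median of 1.79 times as wide. RNA pol II lay wholly inside H3K27ac in 61.1% (56.3 to 65.7) and inside H3K9me3 in 34.3% (26.8 to 42.7). RNA pol II and H3K9me3 peaks that overlapped were of similar width, at a median ratio of 1.08. They shared a median of 63.6% of their joint extent, against 39.3% for RNA pol II with H3K27ac and 49.5% for H3K9ac with H3K27ac. A wider partner lowers this share by itself, and H3K27ac peaks were a median of 1.98 times as wide as the RNA pol II peaks they overlapped. Of the RNA pol II peak, a median of 100% lay under H3K27ac and 92.3% under H3K9me3.

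Wider peaks met other lists more often. Of the H3K9ac peaks, 70.9% at 200 bp overlapped H3K27ac, 81.7% at 201 to 300 bp and 92.4% at 301 to 500 bp. Of the RNA pol II peaks, 26.6% at 200 bp and 45% at 301 to 500 bp overlapped H3K27ac. For H3K9me3 the shares were 1.61% at 200 bp and 4.74% at 301 to 500 bp. Width and overlap moved together in these 3 lists, and the part that the extra base pairs of a wide peak have in this was not tested.

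RNA pol II and H3K9me3 were both found more often at H3K27ac peaks that also carried H3K9ac. RNA pol II was present in 4.14% (3.52 to 4.85) of 3456 H3K27ac peaks with H3K9ac and in 0.887% (0.786 to 1.00) of 29307 without. H3K9me3 was present in 0.781% (0.537 to 1.13, 27 peaks) with H3K9ac and in 0.0682% (0.0442 to 0.105, 20 peaks) without. H3K27ac peaks with H3K9ac were wider, so the RNA pol II shares were also taken within classes of width. At 201 to 300 bp they were 2.74% (1.69 to 4.40) with and 0.402% (0.308 to 0.524) without H3K9ac. At 301 to 500 bp they were 3.15% (2.30 to 4.29) and 1.02% (0.841 to 1.25), and above 500 bp 5.51% (4.50 to 6.73) and 2.33% (1.92 to 2.83). At 200 bp, 0 of 49 H3K27ac peaks with H3K9ac had RNA pol II, which allows a share of up to 7.27%. The H3K9me3 shares with and without H3K9ac were 1.54% and 0.0819% at 201 to 300 bp. They were 0.662% and 0.0423% at 301 to 500 bp, and 0.619% and 0.117% above 500 bp. Each of these H3K9me3 shares rests on only 4 to 11 peaks, and no H3K27ac peak of 200 bp had H3K9me3.

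H3K9me3 at acetylated regions went mostly with RNA pol II. Of the 167 merged regions with both H3K9ac and RNA pol II, 22.8% (17.1 to 29.7) also had H3K9me3, and of the 3974 with H3K9ac and no RNA pol II 0.302% (0.173 to 0.527). Of the 50 regions with H3K9ac and H3K9me3, 38 had RNA pol II. Of the 46 regions with H3K27ac and H3K9me3, 29 had RNA pol II, where 1.12% of the 32682 H3K27ac regions without H3K9me3 had it. Acetylation with H3K9me3 and no RNA pol II was left in 10 regions for H3K27ac, 5 for H3K9ac and 7 for both.

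Regions with RNA pol II and H3K9me3, with or without acetylation, numbered 133. They were most frequent on chromosome 6 (18), chromosome 14 (16) and chromosome 21 (11), and 86 of them had no acetylation peak. Of the RNA pol II regions with H3K9me3, 21.8% (15.6 to 29.6) had H3K27ac, and of those without H3K9me3 33.2% (30.5 to 36.0). For H3K9ac the order was the other way round, 28.6% (21.6 to 36.8) with and 11.7% (9.91 to 13.7) without H3K9me3.

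The 20 regions with all 4 antibodies lay on 14 chromosomes and had a median width of 504 bp, from 243 to 960 bp. Their number was 36 with X included and 0 with the 1242 widest peaks of each list. The widest was chromosome 23, 39042733 to 39043692 (960 bp), where the H3K27ac peak covered the whole region and the H3K9me3 peak 200 bp. Chromosome 1, 91215670 to 91216558 (889 bp) had 887 bp under H3K9me3, 698 bp under RNA pol II and 227 bp under H3K27ac. Chromosome 18, 55992859 to 55993687 (829 bp) had 768 bp under H3K27ac and 453 bp under H3K9me3. Chromosome 17, 34219218 to 34220008 (791 bp) was covered by H3K9me3 in full and by RNA pol II over 789 bp. Chromosome 14, 72580990 to 72581757 (768 bp) was covered by H3K27ac in full. The widest 4-antibody regions were thus led by H3K27ac in 3 cases and by H3K9me3 with RNA pol II in 2.

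In some narrower regions the 4 peaks nearly coincided. On chromosome 18, 51039311 to 51039651 (341 bp), a region chosen after its values were seen, H3K27ac, RNA pol II and H3K9me3 each covered all 341 bp and H3K9ac 329 bp. Over the 20 regions, the stretch under all 4 antibodies made up a median of 45.2% of the region, from 0% to 96.5%. Peaks were merged through any overlap, so a region can hold all 4 antibodies without a base under all of them. For H3K27ac with RNA pol II and H3K9me3 (9 regions), the stretch under all 3 made up a median of 53.8%. It made up 42.3% for H3K9ac with RNA pol II and H3K9me3 (18 regions). For H3K9ac with H3K27ac it was 30.6% with H3K9me3 (7 regions) and 27.3% with RNA pol II (123 regions). The control lists, made against the same input, also held 20 regions with all 4 antibodies, and 9 of the butyrate regions (45%) overlapped one of them. For H3K9ac with H3K27ac, 36.2% of the butyrate regions overlapped a control region of the same combination. The share was 8.14% for RNA pol II with H3K9me3, 6.15% for H3K27ac with RNA pol II and 7.32% with H3K9ac added to these. With RNA pol II and H3K9me3, it was 22.2% for H3K27ac (9 regions) and 11.1% for H3K9ac (18 regions). The other joined combinations had no such overlap, and the shares were not tested against each other.

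In the widest regions that joined H3K27ac with H3K9ac, RNA pol II or both, H3K27ac covered the whole region. For H3K27ac with RNA pol II it was chromosome 18, 52914870 to 52917324 (2455 bp), in which RNA pol II covered 200 bp. For H3K9ac with H3K27ac it was chromosome 22, 43813329 to 43815715 (2387 bp), with H3K9ac over 839 bp. For H3K9ac with H3K27ac and RNA pol II it was chromosome 4, 25095618 to 25097811 (2194 bp), with H3K9ac over 223 bp and RNA pol II over 204 bp. For RNA pol II with H3K9me3 it was chromosome 8, 74725269 to 74726155 (887 bp), covered by H3K9me3 in full and by RNA pol II over 332 bp.

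The widest H3K27ac region without another antibody was chromosome 2, 94854537 to 94856731 (2195 bp). It was narrower than the widest with RNA pol II (2455 bp) or with H3K9ac (2387 bp), and about as wide as that with both (2194 bp). The widest of H3K9me3 alone was chromosome 19, 38417203 to 38418245 (1043 bp), of H3K9ac alone chromosome 16, 30665604 to 30666208 (605 bp), and of RNA pol II alone chromosome 5, 18741144 to 18741642 (499 bp). For 3 combinations with RNA pol II the widest region lay on chromosome 14, within 0.509 Mb of each other. These were H3K27ac with RNA pol II and H3K9me3 at 14583023 to 14583726 (704 bp), H3K9ac with RNA pol II at 14773847 to 14774486 (640 bp), and H3K9ac with RNA pol II and H3K9me3 at 15091438 to 15092210 (773 bp).

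The remaining combinations were rare. H3K27ac with H3K9me3 (10 regions) was widest at chromosome 26, 24529442 to 24530258 (817 bp), with H3K9me3 over 261 bp. H3K9ac with H3K9me3 (5 regions) was widest at chromosome 9, 88294169 to 88294727 (559 bp), with H3K9me3 over 301 bp. H3K9ac with H3K27ac and H3K9me3 (7 regions) was widest at chromosome 12, 11648282 to 11649627 (1346 bp), where H3K27ac covered 908 bp and H3K9me3 271 bp.

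Some peaks were far from every other antibody. The most isolated H3K9me3 peak, chromosome 20, 48546949 to 48547148 (200 bp), was 6.49 Mb from the nearest peak of the other 3 lists. The most isolated H3K27ac peak, chromosome 12, 60768416 to 60768637 (222 bp), was 4.43 Mb away from another list. For RNA pol II this was chromosome 15, 10557829 to 10558088 (260 bp) at 1.95 Mb, and for H3K9ac chromosome 13, 22209798 to 22210066 (269 bp) at 0.548 Mb. Judged by this 1 farthest peak per list, the distance was greatest for H3K9me3 and least for H3K9ac. The distances are not alike between lists. H3K27ac peaks were measured to the 7207 peaks of the other 3 lists, and all others to lists that included the 32763 H3K27ac peaks.

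The control lists are set beside these values without a test. In control, rho per 1 Mb bin was 0.799 for H3K9ac with H3K27ac, 0.351 for H3K27ac with RNA pol II and 0.215 for H3K27ac with H3K9me3. Regions with 2 or more antibodies made up 9.32% of 39299 in control. The control RNA pol II list had 673 peaks on these chromosomes, against 1242 after butyrate. Of these 673, 16.05% overlapped an H3K9me3 peak, against 10.8% after butyrate. Of the control H3K9me3 peaks, 7.23% overlapped RNA pol II, against 7.72%. Per bin, RNA pol II with H3K9me3 had rho = 0.203 and Pearson's r = 0.562 in control, against 0.188 and 0.386. Chromosome 6, 6000001 to 7000000, was the richest control bin for both, with 29 RNA pol II and 41 H3K9me3 peaks. RNA pol II and H3K9me3 thus coincided in control as well.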

How the data were processed

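Rumen tissue of Holstein cattle was profiled by ChIP-seq with 4 antibodies, in control and after 24 h of butyrate, with 1 library per group and 1 input library. Per the methods of the study, the authors aligned reads to the cattle genome build UMD3.1.1 with BWA, using its default parameters, kept unique alignments with fewer than 2 mismatches, and ran MACS2, also with default parameters, against the input. The submitters' processing notes also list Trim Galore 0.4.1. Reads of 75 nt are given as single-end in the series text and as paired-end in the methods. The deposited lists hold the chromosome, start and end of each peak, with no score, p-value or read number, so depth is unknown. Starts were read as 1-based and ends as part of the peak, because the smallest width is then 200 bp in every list and a start at 1 occurs.

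Each library was grouped by its labelled treatment and antibody. Gaps, rings of distance, counts in 1 Mb bins assigned by midpoint, and regions merged from 1 bp of overlap were computed with Python 3.11.15, numpy 2.4.6 and scipy 1.17.1, and these functions were tested on simulated data. The span of a chromosome ended at the last peak of any of the 8 lists, giving 2509 Mb, and gaps in the assembly were not removed. The span share is the percent of the span within reach of the other list, widened for the median width of the first list. No test was run, since each group held 1 library. Alternatives were other bin sizes and offsets, base pairs in place of counts, midpoints, wider peaks, equal numbers per list, other merging rules and X included. Positions named are the 5 widest regions with all 4 antibodies, the widest of every other combination, the richest bin of each list (3 for H3K9me3) and the most isolated peak of each list, and all else named was chosen after its values were seen. The members and comparisons were chosen with earlier results of these data known. No genome or annotation of UMD3.1.1 was used here, so genes, sequence and promoters at the peaks were not analysed.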

Additional observations from a re-analysis of the deposited data

Results flagged for a closer look

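Peaks on X and on the mitochondrial chromosome lay outside the comparisons above, and 7 of their values exceeded the control value of the same antibody. On X, H3K9ac had 0.484 peaks per Mb after butyrate and 0.249 in control, RNA pol II 1.66 and 1.22, and H3K9me3 4.76 and 4.64. Among the 4 butyrate lists, H3K9me3 was thus the densest on X, where H3K27ac had 3.13 peaks per Mb. This was the remaining value and lay below the 4.07 peaks per Mb of the H3K27ac control list. On the mitochondrial chromosome, which carries no histones, H3K9ac peaks covered 7416 bp after butyrate and 773 bp in control, and H3K27ac peaks 9449 bp and 0 bp. RNA pol II peaks covered 15754 bp and 13542 bp there, and H3K9me3 peaks 13552 bp and 8194 bp. None of these differences was tested, since each group held 1 library, and for H3K9ac, H3K27ac and H3K9me3 the condition and the sequencing lane cannot be told apart.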

How the results depend on the processing

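No correlation changed sign under any alternative. Of 60 alternative values of rho, 40 stayed within 0.05 of the reported one. No paired analysis was possible because every group consists of a single library. Where not stated, the cause was not tested.

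Bins of 0.5 Mb gave rho of 0.733 for H3K9ac with H3K27ac, 0.333 for H3K9ac with RNA pol II and 0.375 for H3K27ac with RNA pol II. Bins of 5 Mb raised all 6 pairs, to 0.902, 0.603 and 0.631 for these pairs, 0.268 for H3K9ac with H3K9me3, 0.276 for H3K27ac with H3K9me3 and 0.327 for RNA pol II with H3K9me3. With peaks wider than 200 bp, rho was 0.349 for H3K9ac with RNA pol II and 0.366 for H3K27ac with RNA pol II. Ranks within each chromosome gave 0.398 for the latter pair. Bins with at least 1 H3K27ac peak, tried only after the values were known, gave 0.344 for H3K9ac with RNA pol II, 0.0856 for H3K9ac with H3K9me3, 0.380 for H3K27ac with RNA pol II and 0.0828 for H3K27ac with H3K9me3.

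Taking the 1242 widest peaks of each list changed most values, and by construction it removed most H3K27ac peaks. Overlap of H3K9ac with H3K27ac became 20.3%. The median gap to H3K27ac became 429.7 kb for RNA pol II and 1082 kb for H3K9me3. The rank correlation became 0.50 for H3K9ac with H3K27ac, 0.349 for H3K9ac with RNA pol II, 0.318 for H3K27ac with RNA pol II and 0.0783 for H3K27ac with H3K9me3. H3K27ac alone became 21.4% of regions, 2 or more antibodies 10.3%, and 0 regions held all 4.

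With X included, the median gap from RNA pol II to H3K27ac was 9.45 kb, H3K27ac alone made 79.4% of regions, and 36 regions held all 4 antibodies. Regions with 2 or more antibodies made 13.9% when merged within 500 bp, 15.4% within 1 kb, 10.2% with 50% of the shorter peak shared and 10.05% with peaks wider than 200 bp. H3K27ac alone made 76.5% and 74.4% with merging within 500 bp and 1 kb, and 83.5% with peaks wider than 200 bp. An overlap share has no value under midpoints. The planned sequence and gene context was not run.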
